A study of Bos taurus with 6 samples.

Results

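The integrin and laminin genes were examined in bovine cells isolated as preadipocytes, the precursor cells of adipocytes, that had received either the bta-miR-484 agomir or its agomir NC for 48 h. The genes were chosen by their symbols alone, as every row of the deposited expression table named ITGA, ITGB or LAMA, LAMB or LAMC followed by the number or letter of a chain. This gave 37 of the 23475 genes in the table, of which 18 encode alpha integrins, 8 encode beta integrins and 11 encode laminin chains. An integrin is a cell surface receptor made of an alpha and a beta subunit, whose pairing sets which matrix protein or which other cell it binds. A laminin is a secreted heterotrimer of an alpha, a beta and a gamma chain and a main building block of basement membranes, and laminins are bound by a subset of the integrins. Preadipocytes adhere to a fibronectin-rich matrix through integrins, while mature adipocytes are each surrounded by a basement membrane that contains laminin.

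The agomir group comprised 3 libraries from cells given the bta-miR-484 agomir, a modified synthetic mimic meant to raise the amount of this miRNA, and the agomir NC group comprised 3 libraries from cells given the negative control agomir. All cells were primary cells of bovine subcutaneous fat, taken from 3 calves per the study's methods, and were cultured in serum-containing medium. No source used here says whether the 3 libraries of a group came from the different calves or from parallel cultures, so the SD and the p-values measure only the spread between these libraries, which may be technical. Each gene has 1 FPKM value per library, that is, fragments scaled to the transcript's length and to all mapped fragments in that library. The depth of the libraries is unknown, and the total FPKM per library lay between 365977 and 379361.

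The labels and the study's sequencing methods call the cells adipocytes, while its account of their isolation calls them preadipocytes. Of 12 markers of preadipocytes and fibroblasts, 10 had a mean of at least 0.5 FPKM, with COL3A1 the most abundant at 7623 FPKM, PDGFRA at 166 FPKM and PDGFRB at 133 FPKM. The other markers of that list were CD34, at 0.481 FPKM, and DLK1, which was listed at 0 in all libraries. The 8 markers of mature adipocytes summed to between 11.02 and 12.6 FPKM per library, and the defining genes ADIPOQ and LEP were at 0.140 and 0.0091 FPKM. Of the 5 of these 8 that were tested, PPARG, a regulator of adipogenesis, had a log2 fold change of 0.23, and FABP4, a fatty acid carrier with overlapping groups, one of -0.49, both at an unadjusted p under 0.05 but not at an adjusted p of 0.05 in limma. CEBPA, PLIN1 and LPL had log2 fold changes of 0.29, 0.14 and 0.058 and did not pass, so 4 of the 5 were above 0 and 1 below 0. PPARG did not pass the unadjusted threshold without agomir replicate 1, agomir replicate 3 or agomir NC replicate 3 or with a correction for gene span, and FABP4 did not without agomir replicate 3, agomir NC replicate 1 or a filter. The markers of leukocytes summed to between 6.76 and 7.79 FPKM, mostly CD14 at 6.27 FPKM, with PTPRC at 0.0573 FPKM and TYROBP listed at 0. The markers of epithelial cells summed to at most 0.379 FPKM, and those of endothelial cells to at most 4.54 FPKM, of which VWF made up most. The markers of smooth muscle cells and pericytes summed to between 212 and 243 FPKM, mostly ACTA2, with CNN1 at 14.99 FPKM and CSPG4 at 5.13 FPKM. MYH11, DES and RGS5 of that list were below 0.5 FPKM, with RGS5 at 0.0136 FPKM. The remaining lists were low, with sums of at most 5.37 FPKM for platelets, led by PF4, 4.94 FPKM for Schwann cells, led by S100B with SOX10 at 0, and 0.0191 FPKM for skeletal muscle.

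The mean level of the integrin and laminin genes ranged from 0 to 285 FPKM, the latter for ITGB1. Of the 37 genes, 12 had a mean of at least 10 FPKM and 9 a mean of at least 50 FPKM. These 9 were ITGB1, ITGA5, LAMB1, LAMC1, LAMA4, ITGB3, ITGAV, ITGB5 and LAMB2. At the other end, ITGA4, ITGB6 and LAMC3 were listed at 0 in all 6 libraries, and ITGB2, ITGAL and ITGAD were above 0 in 1 library each. None of 15 genes that every cell uses, such as GAPDH and TBP, was listed at 0. The minimum for testing, an average of 0.5 FPKM in the 6 libraries, was reached by 22 of the 37 genes. The gene just inside this limit was ITGA2B at 0.522 FPKM and the gene just outside it was ITGA10 at 0.493 FPKM.

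**Figure D1:**
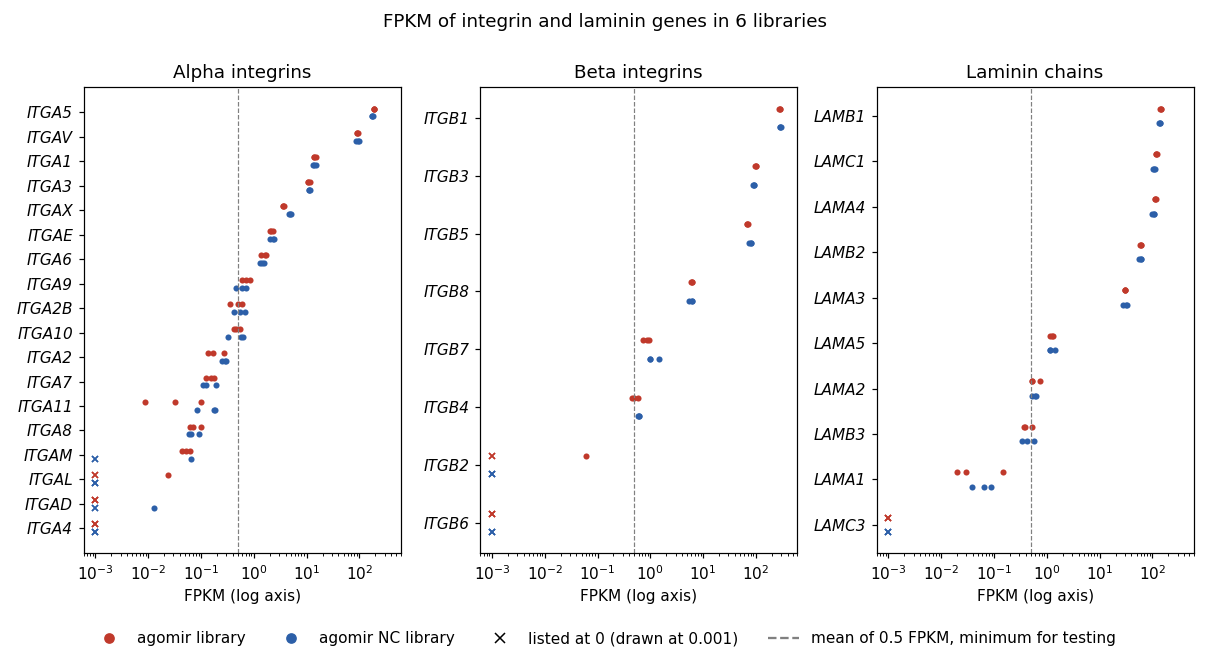
FPKM of 36 of the 37 integrin and laminin genes in the 3 agomir libraries (red) and the 3 agomir NC libraries (blue), on a log axis, with values listed at 0 drawn as crosses at 0.001. ITGB1, ITGA5 and LAMB1 head their panels, and 14 of the genes drawn have means left of the dashed line at 0.5 FPKM and were not tested.

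By limma, with Benjamini-Hochberg adjustment over the 12422 genes tested, no integrin or laminin gene passed an adjusted p of 0.05, where 0.00805% of all genes tested passed, and the lowest adjusted p of the 22 genes was 0.218. At an unadjusted p under 0.05 in limma, 4 of the 22 genes (18.2%) were higher with the agomir, namely ITGA5, ITGB3, LAMA4 and LAMC1, where 6.63% of all genes tested were. At the same threshold, 2 of the 22 genes (9.09%) were lower, namely ITGAX and ITGB5, where 4.31% of all genes tested were. With median-ratio scaling the shares of all genes were 5.29% higher and 5.68% lower, and the same 6 genes were called. Among the 5515 genes that averaged 10 FPKM or more, the range in which 5 of these 6 genes lie, the shares were 8.07% higher and 4.90% lower. All 3 agomir libraries lay above all 3 agomir NC libraries in 4 of the 22 genes, against 10.9% of all genes tested, and below them in 4, against 6.36%, which made 8 of 22 in either direction, against 17.2%. The median log2 fold change of the 22 genes was 0.0077, and -0.0058 with median-ratio scaling, beside 0.013 for all genes tested without that scaling. Without the scaling, 13 of the 22 were above 0, beside 55.1% of all genes tested, and 9 below 0. The differences were small, between 0.12 and 0.37 in size on the log2(FPKM + 0.5) scale for the 6 genes named.

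**Figure D2:**
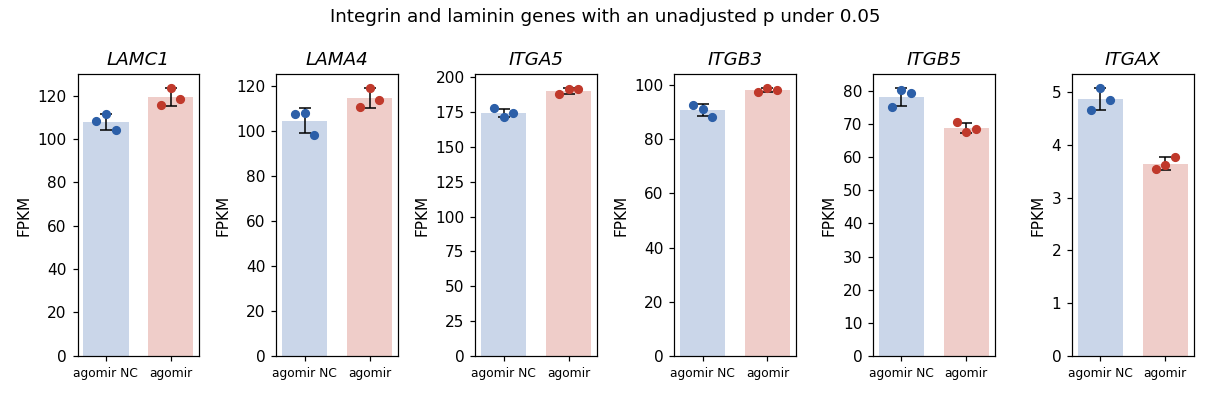
FPKM per library (points), mean (bars) and SD over 3 libraries (error bars) for the 6 genes with an unadjusted p under 0.05 in limma. In each panel the points of the groups do not overlap, with LAMC1, LAMA4, ITGA5 and ITGB3 higher and ITGB5 and ITGAX lower in the agomir libraries.

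Among the alpha integrins that bind the RGD motif of fibronectin and vitronectin, ITGA5, the alpha subunit of the fibronectin receptor, was the most abundant. It had 188, 192 and 191.5 FPKM after the agomir, beside 178, 172 and 174 FPKM after the agomir NC, so the groups did not overlap. Group means of 190.3 ± 2.299 and 174.5 ± 3.04 FPKM (SD, n = 3 each) had the ratio 1.09. On the log2 scale the fold change was 0.12 (SE, the standard error, 0.037, limma adjusted p = 0.31), with an unadjusted p of 0.00709 in limma. In the RefSeq annotation ITGA5 overlaps LOC112446664 and LOC112446663, for which no level is given here. ITGAV, the alpha subunit shared by the vitronectin receptors, reached 92.0, 93.6 and 89.6 FPKM in agomir-treated cells versus 85.4, 96.2 and 92.5 FPKM in control cells. The agomir libraries of ITGAV lay within the range of the controls, and the log2 fold change was 0.0073 (95% confidence interval -0.11 to 0.12). ITGA5 and ITGAV together made up most of the alpha integrin FPKM, with ITGA5 at 60.1% ± 0.597 and ITGAV at 29.0% ± 0.451 in the agomir libraries and at 57.8% ± 1.40 and 30.2% ± 1.62 in the agomir NC libraries (SD, n = 3 each). ITGA2B, the platelet alpha subunit, averaged 0.522 FPKM, and ITGA8 averaged 0.0746 FPKM and was not tested.

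The collagen-binding alpha integrins were represented by ITGA1. ITGA1 measured 13.6, 14.9 and 14.0 FPKM under the agomir, compared to 15.01, 13.9 and 13.2 FPKM under the agomir NC, with overlapping groups and a log2 fold change of 0.014 (95% confidence interval -0.14 to 0.16). In the RefSeq annotation ITGA1 overlaps PELO, which averaged 26.0 FPKM with the agomir, and no source used here says whether strand was used when values were estimated. The other collagen-binding subunits were below the minimum for testing, with ITGA10 at 0.493, ITGA2 at 0.237 and ITGA11 at 0.0971 FPKM. ITGA11 had 0.00851, 0.0317 and 0.101 FPKM after the agomir, beside 0.175, 0.181 and 0.0847 FPKM after the agomir NC, where 1 agomir library lay above 1 control library.

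The laminin-binding alpha integrins were low to moderate. ITGA3 reached 11.4, 10.8 and 10.4 FPKM in agomir-treated cells versus 11.3, 11.3 and 11.1 FPKM in control cells. The groups overlapped, and the log2 fold change was -0.050 (95% confidence interval -0.19 to 0.087). ITGA6, which pairs with ITGB1 or ITGB4, averaged 1.49 FPKM with a log2 fold change of 0.10 (95% confidence interval -0.18 to 0.38). ITGA7, a muscle laminin receptor, averaged 0.147 FPKM and was not tested. ITGA9, a relative of ITGA4 that binds tenascin-C, averaged 0.653 FPKM and had the highest log2 fold change of the 22 genes, 0.15, but with a 95% confidence interval from -0.20 to 0.51.

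Among the alpha subunits known from leukocytes, ITGAX, which encodes CD11c, had the lowest unadjusted p of the integrin and laminin genes. It measured 3.54, 3.62 and 3.77 FPKM under the agomir, compared to 4.67, 5.09 and 4.86 FPKM under the agomir NC. Every agomir library lay below every control library, and the gap between the groups was larger than the spread within either. Group means of 3.64 ± 0.120 and 4.87 ± 0.210 FPKM (SD, n = 3 each) had the ratio 0.748. On the log2 scale the fold change was -0.37 (SE 0.081, limma adjusted p = 0.218), with an unadjusted p of 0.00106 in limma.

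The other leukocyte integrin genes were near 0 or did not pass the test. ITGB2, the beta subunit with which CD11c forms its receptor, was listed at 0 in 5 libraries and at 0.0616 FPKM in agomir replicate 3. ITGAM averaged 0.0369, ITGAL 0.00389 and ITGAD 0.00217 FPKM. Of the 8 leukocyte markers, 6 were below 0.5 FPKM, among them PTPRC at 0.0573 FPKM and TYROBP at 0. The others were CD14 at 6.27 FPKM and CD68 at 0.906 FPKM. Their log2 fold changes of -0.055 and 0.19 did not pass an unadjusted p of 0.05 in limma. In bulk libraries, fewer cells of a type and less RNA per cell cannot be told apart. ITGAX, ITGAM and ITGAD are close relatives in sequence, so the assignment of reads among them may be uncertain, which was not tested. ITGAX had no match by symbol or synonym in the RefSeq table. ITGAE, the partner of ITGB7 in intraepithelial lymphocytes, averaged 2.21 FPKM with a log2 fold change of -0.042 (95% confidence interval -0.28 to 0.20), and in RefSeq it overlaps HASPIN, at 0.666 FPKM with the agomir.

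ITGB1, a beta subunit that pairs with many alpha subunits, was the most abundant of the 37 genes. It had 274, 290.2 and 285 FPKM after the agomir, beside 293, 282 and 284 FPKM after the agomir NC. The groups overlapped, and the log2 fold change was -0.015 (95% confidence interval -0.10 to 0.073). ITGB1 made up 61.8% ± 0.807 of the beta integrin FPKM in the agomir libraries and 61.8% ± 0.741 in the agomir NC libraries (SD, n = 3 each).

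ITGB3 and ITGB5, which both pair with ITGAV to bind vitronectin, lay in opposite directions. ITGB3 reached 97.5, 99.1 and 98.3 FPKM in agomir-treated cells versus 92.6, 91.3 and 88.2 FPKM in control cells. All agomir libraries of ITGB3 lay above the controls, with means of 98.3 ± 0.763 and 90.7 ± 2.25 FPKM (SD, n = 3 each) and a log2 fold change of 0.12 (SE 0.039, limma adjusted p = 0.359). The unadjusted p of ITGB3 was 0.015 in limma, and 0.0619 when the variance trend was left out.

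ITGB5 measured 70.6, 67.5 and 68.7 FPKM under the agomir, compared to 75.2, 80.2 and 79.5 FPKM under the agomir NC. All agomir libraries of ITGB5 lay below the controls, with means of 68.9 ± 1.54 and 78.3 ± 2.74 FPKM (SD, n = 3 each) and a log2 fold change of -0.18 (SE 0.044, limma adjusted p = 0.257). Its unadjusted p was 0.00214 in limma. Within each library, ITGB3 over ITGB5 was 1.38, 1.47 and 1.43 with the agomir and 1.23, 1.14 and 1.11 with the agomir NC, a ratio formed after the values were seen. The sum of ITGB3 and ITGB5 was also formed after the values were seen. It averaged 167.2 ± 0.793 FPKM under the agomir, compared to 169 ± 2.21 FPKM under the control (SD, n = 3 each). With ITGB3 higher and ITGB5 lower, similar sums follow from the choice of genes, so nothing is concluded from them.

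The remaining beta subunits were lower in abundance. ITGB8, which pairs with ITGAV and binds latent TGF-beta, had 6.24, 6.25 and 5.79 FPKM after the agomir, beside 6.27, 6.20 and 5.46 FPKM after the agomir NC, with a log2 fold change of 0.027 (95% confidence interval -0.15 to 0.21). ITGB7, the leukocyte homing subunit, reached 0.716, 0.872 and 0.926 FPKM in agomir-treated cells versus 1.002, 1.44 and 0.9802 FPKM in control cells. ITGB4, the hemidesmosome subunit, measured 0.572, 0.490 and 0.458 FPKM under the agomir, compared to 0.575, 0.599 and 0.601 FPKM under the agomir NC. The groups of ITGB7 and ITGB4 did not overlap, but their log2 fold changes of -0.29 (95% confidence interval -0.63 to 0.055) and -0.12 (95% confidence interval -0.44 to 0.20) did not pass an unadjusted p of 0.05. Both lie near the minimum for testing, where the pseudocount of 0.5 FPKM shrinks a fold change.

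Alpha and beta subunits can be set side by side because FPKM is per length. Of 24 known alpha and beta pairs, 12 had both subunits at a mean of at least 0.5 FPKM and 6 had both at a mean of at least 10 FPKM. These 6 pairs joined ITGB1 with ITGA1, ITGA3, ITGA5 or ITGAV, and ITGAV with ITGB3 or ITGB5. The alpha integrins gave sums of 314, 321 and 315 FPKM under the agomir, compared to 299.9, 304 and 302 FPKM under the agomir NC. The groups of these sums did not overlap, and ITGA5 accounted for 59.0% of the sum. The beta integrins gave sums of 450, 464 and 460 FPKM under the agomir, compared to 468, 461 and 458 FPKM under the agomir NC, and these sums overlapped. In all 6 libraries the beta sum exceeded the alpha sum, by a ratio of 1.45 ± 0.0137 with the agomir and 1.53 ± 0.0255 with the agomir NC (SD, n = 3 each).

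LAMA4, LAMB1 and LAMC1, the chains of laminin-411, were the most abundant alpha, beta and gamma chains. LAMC1 had 116, 124 and 118 FPKM after the agomir, beside 109, 112 and 104 FPKM after the agomir NC. All agomir libraries of LAMC1 lay above the controls, with means of 119 ± 4.17 and 108 ± 3.75 FPKM (SD, n = 3 each), and their ratio was 1.10. On the log2 scale the fold change was 0.14 (SE 0.045, limma adjusted p = 0.335), with an unadjusted p of 0.0106 in limma. In RefSeq LAMC1 overlaps TRNAS-GGA, for which no level is given here.

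LAMA4, an alpha chain of mesenchymal, vascular and adipose basement membranes, reached 110.5, 119 and 113 FPKM in agomir-treated cells versus 108, 108 and 98.3 FPKM in control cells. All agomir libraries lay above the controls, with agomir replicate 1 close to the nearest of them. LAMA4 averaged 114 ± 4.39 and 104.5 ± 5.41 FPKM (SD, n = 3 each), with a log2 fold change of 0.13 (SE 0.050, limma adjusted p = 0.401). The unadjusted p of LAMA4 was 0.0277 in limma, but 0.103 without agomir replicate 2, 0.0553 without agomir replicate 3 and 0.0941 without agomir NC replicate 3, and 0.0834 without the variance trend.

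LAMB1, the beta chain shared by many laminins, measured 141, 148 and 144 FPKM under the agomir, compared to 142, 139.7 and 131 FPKM under the agomir NC. The groups of LAMB1 overlapped by 1 library each, and the log2 fold change was 0.067 (95% confidence interval -0.030 to 0.16). LAMB2, the alternative beta chain, had 61.4, 60.3 and 58.9 FPKM after the agomir, beside 60.9, 61.7 and 56.4 FPKM after the agomir NC, with a log2 fold change of 0.014 (95% confidence interval -0.093 to 0.12).

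LAMA3, best known from the epithelial laminin-332, averaged 30.7 FPKM and was the second laminin alpha chain in abundance, at 21.6% of the laminin alpha FPKM beside 77.0% for LAMA4. Its log2 fold change was -0.0078 (95% confidence interval -0.16 to 0.14). LAMB3, the beta chain that joins LAMA3 in that laminin, was at 0.435 FPKM and was not tested, and the epithelial keratin genes KRT5 and KRT14 were listed at 0. LAMA5 averaged 1.25 FPKM and LAMA2, the chain of muscle basement membrane, 0.594 FPKM, with log2 fold changes of 0.00050 and 0.0081, and LAMA1 averaged 0.0642 FPKM.

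The laminin alpha chains summed to 147 ± 4.53 FPKM under the agomir, compared to 137 ± 8.23 FPKM under the control, and the beta chains to 205 ± 3.23 and 198 ± 8.27 FPKM (SD, n = 3 each). Of the 7 laminin chains tested, 2 (28.6%) were higher at an unadjusted p under 0.05 in limma and 0 were lower, beside 6.63% and 4.31% of all genes tested. The count of higher chains was 1 without agomir replicate 2, agomir replicate 3 or agomir NC replicate 3, without the variance trend and with the span trend removed. The median of the 7 was 0.014, and -0.0011 with median-ratio scaling.

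**Figure D3:**
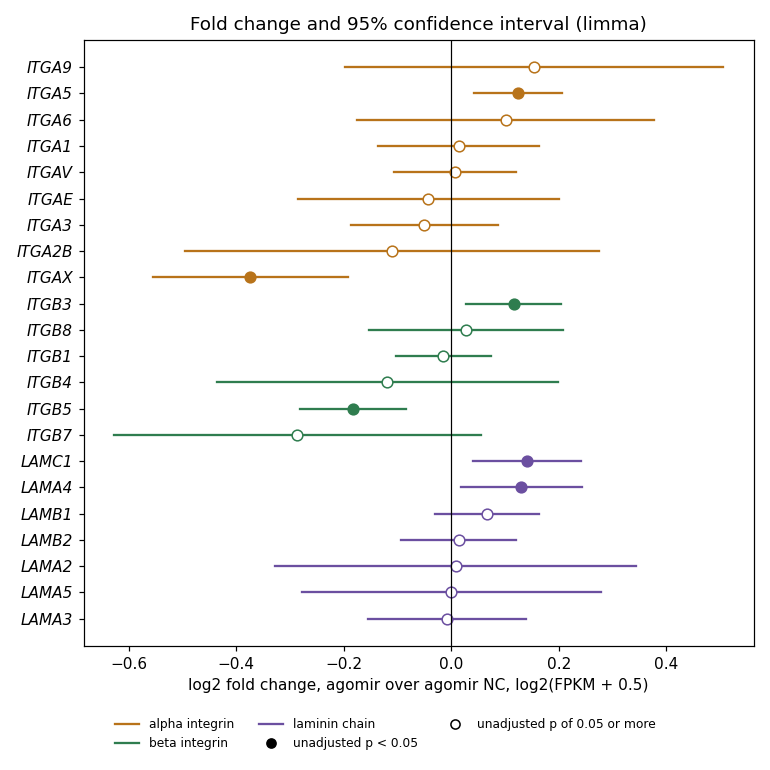
Log2 fold change of agomir over agomir NC on the log2(FPKM + 0.5) scale (points) with the 95% confidence interval from limma (lines) for the 22 genes tested. The 6 filled points, at -0.37 (ITGAX), -0.18 (ITGB5) and between 0.12 and 0.14 (ITGB3, ITGA5, LAMA4, LAMC1), passed an unadjusted p of 0.05, and the 16 open points did not.

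Many integrin and laminin genes are long, and fold changes moved with gene span, the distance from the start to the end of a gene. Of 4 groups of genes of near equal size, the one with the shortest spans had a median log2 fold change of -0.016 and the one with the longest spans 0.041, and 13 of the 21 integrin and laminin genes with a known span lay in the latter. Once each library was corrected for a trend with span, log2 fold changes were 0.11 for ITGA5, 0.098 for LAMC1, 0.084 for ITGB3 and 0.085 for LAMA4, and -0.23 for ITGB5. LAMA4 then had a limma unadjusted p of 0.0683, and the other 4 kept theirs under 0.05. ITGAX had no span in the table and was left as it was. The part of gene span in these differences beyond this correction was not tested.

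The cytoplasmic proteins that link integrins to actin were listed separately. Of 31 tested activators and adaptors of integrins, 3 (9.68%) were higher with the agomir at an unadjusted p under 0.05 in limma and 1 (3.23%) was lower, beside 6.63% and 4.31% of all genes tested, with a median log2 fold change of 0.042. The count of higher genes was 2 without agomir replicate 1. It was 4 with quantile normalization and without agomir replicate 3, agomir NC replicate 2 or agomir NC replicate 3. PTK2B, a kinase related to focal adhesion kinase, measured 10.1, 9.02 and 9.35 FPKM under the agomir, compared to 7.32, 7.97 and 7.65 FPKM under the agomir NC, with a log2 fold change of 0.29 (SE 0.071). VCL, which encodes vinculin, was at 112, 118 and 114 FPKM against 107, 102 and 101 FPKM, with a log2 fold change of 0.15 (SE 0.042). The groups of PTK2B and VCL did not overlap.

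GIT2, a focal adhesion scaffold, was the third of the higher genes, with a log2 fold change of 0.20 (SE 0.067). FYN, a Src family kinase, was the lower one, at -0.15 (SE 0.050), and did not pass without agomir replicate 1 or agomir NC replicate 2. FERMT2, the kindlin that activates beta integrins, was the most abundant of this list at 143 FPKM, with a log2 fold change of 0.098 (SE 0.045) and an unadjusted p of 0.0563 in limma. PTK2, TLN1 and ILK, which encode focal adhesion kinase, talin and integrin-linked kinase, had log2 fold changes of 0.063, 0.040 and -0.011 and did not pass. By limma, none of these genes passed an adjusted p of 0.05, and the lowest of the list was 0.257.

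Of 13 tested inhibitors and trafficking factors of integrins, 3 (23.1%) were higher at an unadjusted p under 0.05 in limma and 0 were lower, beside 6.63% and 4.31% of all genes tested, though the count of higher genes was 1 without agomir replicate 2. The count was 2 with median-ratio scaling, without the variance trend, with the span trend removed, and without agomir replicate 1, agomir replicate 3, agomir NC replicate 1 or agomir NC replicate 3. The 3 genes were SNX17, a sorting nexin that returns beta1 integrin to the cell surface, KRIT1, a partner of the integrin-binding protein ICAP1, and NRP1, a co-receptor that promotes traffic of ITGA5. SNX17 had 47.7, 47.2 and 46.5 FPKM after the agomir, beside 42.7, 40.6 and 44.6 FPKM after the agomir NC, with a log2 fold change of 0.14 (SE 0.048). The groups of SNX17 did not overlap. The log2 fold changes of KRIT1 and NRP1 were 0.21 (SE 0.074) and 0.11 (SE 0.044). FLNA, which encodes filamin A and was the most abundant of the list at 357 FPKM, had a log2 fold change of 0.0062 (SE 0.057).

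Membrane proteins that associate with integrins formed another list. Of 15 tested, 5 (33.3%) were lower with the agomir at an unadjusted p under 0.05 in limma and 0 were higher, beside 4.31% and 6.63% of all genes tested, and the median log2 fold change was -0.069. Over the 16 alternative settings between 3 and 7 were lower, with 3 without agomir replicate 3 and without the variance trend, and 2 were higher with quantile normalization. Of the 5, CD82, CD9 and CD63 are tetraspanins, which hold integrins in membrane domains, and SDC1 and SDC2 are syndecans, heparan sulfate co-receptors of the matrix. CD82 reached 4.69, 4.13 and 4.49 FPKM in agomir-treated cells versus 5.89, 6.49 and 5.33 FPKM in control cells, a log2 fold change of -0.37 (SE 0.092, limma adjusted p = 0.261).

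CD9 measured 466, 467 and 477 FPKM under the agomir, compared to 488, 521 and 544 FPKM under the agomir NC, which gave a log2 fold change of -0.14 (SE 0.045). SDC2 was at 30.3, 30.8 and 29.5 FPKM against 32.8, 36.0 and 36.9 FPKM, a log2 fold change of -0.22 (SE 0.056). In each of these 3 genes all agomir libraries lay below the controls. CD63, the most abundant gene of the list at 615 FPKM, and SDC1 had log2 fold changes of -0.10 and -0.12. CD151, the tetraspanin that binds laminin-binding integrins, was at -0.066 (95% confidence interval -0.19 to 0.054) and did not pass.

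Among 15 tested matrix and cell surface ligands of integrins, 5 (33.3%) were lower at an unadjusted p under 0.05 in limma and 0 were higher, beside 4.31% and 6.63% of all genes tested. The count was 3 lower without agomir replicate 2 or without a filter, and 1 higher with quantile normalization or without agomir NC replicate 1 or 2. MFGE8, a ligand of the ITGAV receptors that contain ITGB3 or ITGB5, had 1142, 1152 and 1168 FPKM after the agomir, beside 1242, 1262 and 1315 FPKM after the agomir NC. The groups of MFGE8 did not overlap, and its log2 fold change was -0.14 (SE 0.039, limma adjusted p = 0.305). ICAM1, which binds ITGB2 integrins, SPP1, which encodes osteopontin, TGFB1, whose latent form binds ITGAV integrins, and VCAM1, which binds ITGA4 integrins, had log2 fold changes of -0.29, -0.28, -0.22 and -0.20. FN1, the ligand of the ITGA5 and ITGB1 receptor, averaged 193 ± 3.598 FPKM under the agomir, compared to 189 ± 10.1 FPKM under the control (SD, n = 3 each), with a log2 fold change of 0.033 (SE 0.046). VTN, the gene of vitronectin, was listed at 0 in all libraries. COL3A1 was the most abundant of this list, with a log2 fold change of -0.027.

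The partners of laminin in the basement membrane were listed too. Of 12 tested, 0 were higher and 0 were lower at an unadjusted p under 0.05 in limma, beside 6.63% and 4.31% of all genes tested, and 0 passed an adjusted p of 0.05. Their log2 fold changes lay between -0.069 and 0.043, and 1 of 17 was lower at an unadjusted p under 0.05 without a filter. NID1, the nidogen that links laminin to collagen IV, averaged 287 ± 4.05 FPKM under the agomir, compared to 289 ± 13.2 FPKM under the control (SD, n = 3 each). SPARC, a matricellular protein that binds collagen IV, was the most abundant at 3822 FPKM, with a log2 fold change of -0.011. COL4A1, COL4A2 and HSPG2, which encode collagen IV chains and perlecan, had log2 fold changes of 0.031, 0.037 and 0.043.

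Of 6 tested laminin receptors other than integrins, 1 (16.7%) was lower at an unadjusted p under 0.05 in limma and 0 were higher, beside 4.31% and 6.63% of all genes tested. The count of lower genes lay between 0 and 3 over the 16 alternative settings, with 0 without agomir replicate 1, agomir replicate 3 or agomir NC replicate 2, among others, and 3 with median-ratio scaling or the span trend removed. Without a filter, 1 of 8 was higher and 2 were lower. The gene was SGCD, a sarcoglycan of the dystroglycan complex, at 3.40, 3.79 and 3.10 FPKM under the agomir, compared to 3.95, 4.11 and 4.25 FPKM under the agomir NC, which gave a log2 fold change of -0.23 (SE 0.094). DAG1, which encodes dystroglycan, was at 36.8 ± 0.399 against 39.6 ± 1.69 FPKM (SD, n = 3 each), with a log2 fold change of -0.11 (SE 0.048) and groups that did not overlap, at an unadjusted p of 0.052 in limma. RPSA, the ribosomal protein first described as a laminin receptor, was the most abundant at 1947 FPKM, with a log2 fold change of -0.016.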

How the data were processed

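RNA of 6 samples of transfected bovine cells was sequenced by the study on an Illumina platform. Values were deposited as FPKM, with 1 per gene in each library, and the submitters' processing notes name fastp, HISAT2 and StringTie and the build ARS-UCD1.2. Read numbers are not part of the values, and ratios of 971 low genes between libraries showed no steps (at most 6 genes in a bin of 0.002 log2), so no counting error can be given.

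Groups were taken from the treatment labels. The 12422 genes whose mean reached 0.5 FPKM were taken as log2(FPKM + 0.5) and compared with limma 3.58.1 in R 4.3.3 (variance trend, two-sided, Benjamini-Hochberg over all genes tested, no replicate block). A fold change on this scale understates that of low genes. The exact two-sided permutation test of 3 against 3 libraries cannot go below p = 0.1 and adds nothing beyond the overlap of the groups. The gene family, the lists and the alternatives were chosen with earlier results of these data known. Symbols alone then picked the genes of the family, and the alternatives were planned before the fits. The alternatives were pseudocounts 0.1 and 1, no filter, at least 1 FPKM, 2 scalings, no trend, weights, block, span and each library left out. Full values are given for genes at an unadjusted p under 0.05 and for the 4 most abundant alpha integrins, beta integrins and laminin chains, and companion genes are named at that p or as the most abundant of a list. Other companion genes named, and other genes shown per library, were picked after their values were seen. Of the companion lists, GP1BB, PAX7, CCN1 and CCN2 had no row by that symbol. Spans and neighbors were derived from RefSeq coordinates (ARS-UCD2.0), with 11471 of 12422 genes matched. That build differs from the ARS-UCD1.2 of the values, so spans and overlaps may differ there. Sequences were not used here, and 1 of the 37 genes enters the counts but is not reported here by its values.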

Additional observations from a re-analysis of the deposited data

How the results depend on the processing

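In each of 16 alternative settings, 0 integrin or laminin genes passed an adjusted p of 0.05 in limma. The count of lower genes at an unadjusted p under 0.05 was 2 in all 16, and they were ITGAX and ITGB5 each time. The count of higher genes was 4 as reported, 2 without the variance trend (ITGA5 and LAMC1), 3 with the span trend removed and from 3 to 4 with 1 library left out, and without a filter it included ITGA5, ITGB3 and LAMC1 but not LAMA4. ITGA5, ITGB3, LAMA4, LAMC1, ITGB5 and ITGAX kept their direction in all 16 settings, with adjusted p between 0.194 and 0.696 in limma. The groups of these genes did not overlap. Changes of pseudocount, filter, variance trend, weights or block, or leaving out a library, therefore could not reverse them. Only the scalings and the span correction could, the latter not for ITGAX. The median log2 fold change of the genes tested ranged from -0.023 to 0.044 with 1 library left out. It was -0.0058 with median-ratio scaling and -0.031 with the span trend removed. The SD of the median between libraries of a group was 0.0391, so no direction can be given for it. Of 208 values of single genes, 191 kept direction and side of the adjusted threshold and 17 changed sign, all of genes near 0. ITGAV was at -0.0092, ITGA1 at -0.0022 and LAMB2 at -0.0024 with median-ratio scaling. With quantile normalization ITGA1 was at -0.018, ITGB1 at 0.050 and ITGB8 at -0.0022. With the span trend removed ITGAV was at -0.035, ITGA1 at -0.032 and ITGB8 at -0.013. With 1 library left out, ITGAV ranged from -0.040 to 0.045, ITGA1 from -0.029 to 0.062, ITGB1 from -0.032 to 0.0090, ITGB8 from -0.031 to 0.061 and LAMB2 from -0.025 to 0.038. The cause was not tested. Replicate numbers 1 to 3 occur in both groups. Deviations of same-numbered libraries correlated at -0.051, 0.053 and 0.039, beside -0.109 to 0.072 for libraries with different numbers. With 3 libraries per group, these values cannot tell whether same-numbered libraries share a calf or a culture. The fit with the replicate block gave 4 higher and 2 lower genes, and 0 lower laminin receptors other than integrins, so SGCD was not called there. For the 15 genes below 0.5 FPKM, the unknown depth leaves no counting error to set a difference against.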

Other observations

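ITGBL1, a secreted protein related to the beta integrins that the naming rule leaves out, measured 4.58, 5.75 and 5.85 FPKM under the agomir, compared to 5.88, 6.78 and 5.84 FPKM under the agomir NC, with 1 agomir library above 1 control library. Of 10 tested markers of preadipocytes and fibroblasts, 2 (20%) were lower at an unadjusted p under 0.05 in limma and 0 were higher, beside 4.31% and 6.63% of all genes tested, and 7 had a log2 fold change below 0 and 3 above 0. They were NT5E, which encodes the ecto-5'-nucleotidase CD73, with a log2 fold change of -0.25 (SE 0.051, limma adjusted p = 0.209), and DCN, which encodes decorin, at -0.12 (SE 0.043, limma adjusted p = 0.376). The collagen genes COL1A1 and COL1A2 were at 0.062 and 0.048. The count of lower markers was 1 without agomir replicate 1 or 3, without the variance trend and with quantile normalization, and at most 3 in the other settings.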
